A study of Mus musculus with 5 samples.

Results

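Metallothioneins and zinc sensors are 8 of the 36716 genes in the count table of mouse skin: the metallothioneins Mt1, Mt2 and Mt4, the zinc-sensing transcription factor Mtf1, the zinc exporter Slc30a1 and the zinc importers Slc39a10, Slc39a4 and Slc39a14. They were chosen by name for their known roles, and each was found in the table as 1 row. The study put PBS or a dispersion of nanosized zinc oxide (nZnO, 20 nm), silver (nAg, 25 nm, coated with polyvinylpyrrolidone) or titanium dioxide (nTiO2, 30 to 40 nm) on the upper back of hairless SKH-1 mice, with or without prior scratching, and took the skin 24 h or 7 d later. Zinc and silver are metals that metallothioneins bind, so the groups that received nZnO and nAg are compared here with those that received PBS or nTiO2.

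All 153 mice were females aged 7 to 8 weeks. A dose was 500 µg of nanomaterial in 10 µL, and scratching was 12 strokes of a metal brush. At each time there were 4 groups with intact skin (PBS, nTiO2, nZnO and nAg), 4 groups that were scratched before the same applications, and 1 group that was scratched only, each with 8 mice. A group of 9 naive mice served both times. The numbers of mice are those of the count table, which holds more mice a group than the series' design text says were sequenced. Mice were housed 4 to a cage, and the cage of each mouse is not given in the sources used here, so that p-values treat the mice of a cage as independent. The libraries were sequenced in 5 pools, and most groups were split over a pair of pools.

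Totals per mouse ran from 201053 to 4028559 counts with a median of 1226021, at which 1 count is 0.816 CPM, where CPM is a gene's counts scaled to a common total per mouse. The biopsies were whole upper-back skin, in which fewer cells of a type and less RNA per cell cannot be told apart. The keratinocyte keratins Krt5 and Krt14 were at 611 to 2373 CPM and at 1247 to 4922 CPM in every mouse, and the suprabasal keratin Krt10 was at 832 to 4252 CPM. The hair keratin Krt35 was listed at 0 in 36 mice and reached 96.6 CPM in another, although the strain is hairless.

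Metallothioneins are small proteins rich in cysteine that bind zinc, copper, silver and cadmium. When free zinc in a cell rises, the zinc fingers of MTF-1, the product of Mtf1, bind short DNA elements called metal response elements and raise transcription of Mt1, Mt2 and Slc30a1. Glucocorticoids and the cytokines of the acute phase also raise Mt1 and Mt2, and both genes are active in the epidermis. Mt4 is a metallothionein of stratified squamous epithelium, and in skin it is made by differentiating keratinocytes.

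The start regions of the members were searched for the core of the metal response element, because it is the element through which zinc is known to raise Mt1, Mt2 and Slc30a1. The core was spelled TGCACNC or TGCGCNC and was sought on both strands of the RefSeq windows of the GRCm39 build, each of which runs from 250 bases before to 50 bases after a RefSeq start. These starts differ from the Gencode positions given below, for Mt2 at 94899246 against 94898819 and for Mtf1 at 124696342 against 124695897. Slc39a10 had windows at the starts 46964936 and 46892778. Windows were found for 6 of the 8 members (none for Slc39a4 and Slc39a14), and 4 of these held a core. Mt2 held 4 cores, Mt1 held 3, Slc30a1 held 2 and Mt4 held 1, while Mtf1 and Slc39a10 held 0. Among all 32851 windows, 25.7% held at least 1 core, 7.11% at least 2, 1.97% at least 3 and 0.517% at least 4. All 10 are shown as 21 bases, 5′ to 3′ on the gene's strand, with the core in capitals, since Mt1 and Mt2 moved together in the results while Slc30a1 and Mt4 did not move with them. The 3 cores of Mt1 and the first 2 of Mt2 lie on the gene's own strand, and the others on the opposite one, where the capitals show the reverse complement. A match of letters is a description and not a site of binding.
Mt1, chr8:94905687-94905707: cccgctgTGCACACtggcgct
Mt1, chr8:94905712-94905732: ggagctcTGCACTCcgcccga
Mt1, chr8:94905730-94905750: cgaaaagTGCGCTCggctctg
Mt2, chr8:94899016-94899036: tcgcctcTGCACCCggcccct
Mt2, chr8:94899111-94899131: gacccttTGCGCTCagctcct
Mt2, chr8:94899189-94899209: ggagggcGTGTGCAggctctg
Mt2, chr8:94899243-94899263: tcgggtcGTGCGCAggcccag
Slc30a1, chr1:191638843-191638863: gggttccGAGTGCAaagcaaa
Slc30a1, chr1:191638916-191638936: ccgggccGAGCGCAgtcgccg
Mt4, chr8:94863734-94863754: ctgggccGTGTGCAgggcgtc

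The 3 metallothionein genes lie in 1 cluster on the forward strand of chromosome 8 (GRCm39), with Mt4 at 94863825 to 94865661, Mt2 at 94898819 to 94900207 and Mt1 at 94905710 to 94906955. Mtf1 lies on chromosome 4 at 124695897 to 124743593, Slc30a1 on chromosome 1 at 191638808 to 191645361 and Slc39a10 on chromosome 1 at 46845872 to 46964964. Slc39a4 lies on chromosome 15 at 76496580 to 76504172 and Slc39a14 on chromosome 14 at 70540678 to 70588914, and the 3 importers are on the reverse strand.

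Mt1 and Mt2 were measured well in every mouse. Mt1 was at 452 ± 113 CPM (SD, n = 153 mice), from 306 to 985 CPM, and Mt2 was at 234 ± 72.9 CPM, from 144 to 617 CPM. Mt4 was the most variable of the metallothioneins, at 46.1 ± 41.0 CPM with a range of 1.90 to 236 CPM. Differences between group means took 34.6% of the variance of Mt1 on the log2 scale, 31.6% of that of Mt2 and 34.8% of that of Mt4.

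The regulator and the transporters had a smaller share of their variance between groups than the metallothioneins. Mice split at random into as many groups would also give some share, and no such baseline was computed. The smaller shares are therefore not read as differences between groups. Mtf1 was at 30.7 ± 5.35 CPM, and 9.16% of its variance on the log2 scale lay between groups. The exporter Slc30a1 (ZnT1), which moves zinc out of the cell, was at 82.8 ± 13.8 CPM with 13.9% between groups. Slc39a10 (ZIP10), an importer of the plasma membrane, was at 80.2 ± 18.2 CPM with 16% between groups. Slc39a14 (ZIP14), an importer of zinc and iron that interleukin-6 induces in liver, was at 24.6 ± 10.0 CPM with 27.4% between groups. Slc39a4 (ZIP4), the main zinc importer of the intestine, was at 2.14 ± 1.41 CPM, was listed at 0 in 18 of 153 mice and reached 7.37 CPM. It never passed the filter of more than 5 counts in 75% of the mice of a group, and so 7 of the 8 members were tested.

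For each member the 19 groups were ordered by mean CPM. Mt1 ran from 357 CPM (intact PBS, 7 d) to 649 CPM (scratched nZnO, 24 h), Mt2 from 192 CPM (intact nTiO2, 24 h) to 343 CPM (scratched nZnO, 24 h), and Mt4 from 19 CPM (scratched nZnO, 24 h) to 90.6 CPM (intact nAg, 7 d). The 5 highest means of Mt1 and of Mt2 were those of the 5 scratched groups at 24 h. Mtf1 ran from 27.8 to 33.8 CPM, Slc30a1 from 74.7 to 91.4 CPM, Slc39a10 from 65.9 to 93.9 CPM, Slc39a14 from 14.4 to 35.2 CPM and Slc39a4 from 1.34 to 3.36 CPM. Neighbours in these orders overlapped in their ranges over mice.

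**Figure D1:**
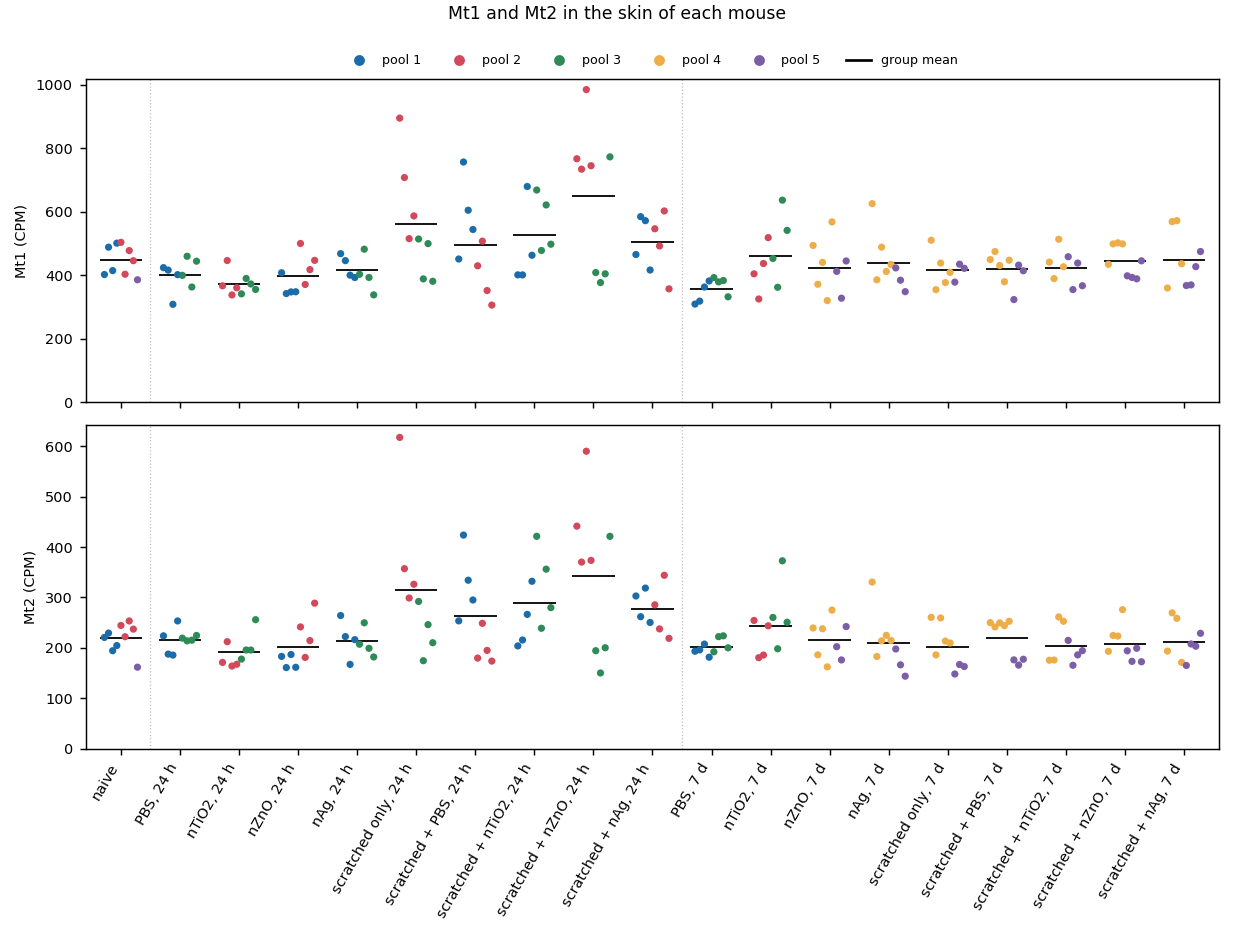
CPM of Mt1 (top) and Mt2 (bottom) in each mouse of the 19 groups, with points coloured by sequencing pool and bars at the group means. The scratched groups at 24 h reach furthest up, to 985 CPM for Mt1 and 617 CPM for Mt2, and some of these groups are split between their pools.

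Scratching was followed by higher Mt1 and Mt2 at 24 h. With nZnO applied, Mt1 was at 377, 739 and 985 CPM (lowest, median and highest mouse) in scratched skin and at 342, 389 and 500 CPM in intact skin, and 5 of 8 scratched mice lay above every intact mouse. Mt2 was at 150, 372 and 590 CPM in the same scratched mice and at 161, 185 and 289 CPM in the intact ones, again with 5 scratched mice above every intact one and 1 below all of them. The groups therefore overlapped, and within the scratched nZnO group 3 mice had Mt1 of 408 CPM or less while the other 5 had 734 CPM or more. The log2 fold change was 0.76 for Mt1 (SE 0.19, adjusted p = 0.0245) and 0.81 for Mt2 (adjusted p = 0.0449) by edgeR's quasi-likelihood test, against 5.33% of all 11699 genes tested that passed. Both values moved with single mice: leaving out replicate 3 of the scratched nZnO group gave an adjusted p of 0.0577 for Mt1 and 0.103 for Mt2, leaving out replicate 4 gave 0.0526 for Mt1, and Mt2 stayed past the threshold in 4 of 16 such fits.

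With nTiO2, Mt1 was at 401, 488 and 679 CPM in scratched skin and at 337, 363 and 446 CPM in intact skin, and 6 of 8 scratched mice lay above every intact one. Mt2 was at 204, 273 and 421 CPM against 164, 187 and 256 CPM, with 5 scratched mice above. Mt1 rose by 0.55 (adjusted p = 0.0211) and Mt2 by 0.63 (adjusted p = 0.0148) on the log2 scale, against 2.15% of genes that passed. Mt2 passed in 16 of 16 fits that left out 1 mouse and Mt1 in 15, the exception being the fit without scratched nTiO2 replicate 3 (adjusted p = 0.0511).

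With PBS and nAg the same differences did not pass. Mt1 was at 306, 479 and 756 CPM in scratched PBS skin against 308, 409 and 459 CPM in intact PBS skin, a log2 fold change of 0.29 (95% interval -0.02 to 0.61, adjusted p = 0.323), and Mt2 had 0.28 (adjusted p = 0.371). With nAg, Mt1 was at 357, 519 and 602 CPM against 338, 401 and 482 CPM, a log2 fold change of 0.26 (95% interval 0.04 to 0.48, adjusted p = 0.245), and Mt2 had 0.36 (adjusted p = 0.103). Of all genes tested, 3.39% passed with PBS and 1.51% with nAg. With nAg 2 of 7 members were at an unadjusted p under 0.05, and 0 were called by DESeq2. In scratched only against naive skin at 24 h, Mt1 was at 381, 514 and 895 CPM against 385, 445 and 503 CPM, with 5 of 8 scratched mice above all 9 naive ones. Its log2 fold change was 0.31 (adjusted p = 0.223), that of Mt2 was 0.51 (adjusted p = 0.123) and that of Slc39a14 was 0.57 (adjusted p = 0.0791), and 0 members were called where 2.93% of genes were. At an unadjusted p under 0.05, 5 of 14 member values passed over both times of this comparison, and DESeq2 called 0. The share of all genes at that unadjusted p is not given, for these or for later counts of this kind.

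Fitting the 16 groups that had an application together, a contrast chosen after the values above had been seen, gave a mean effect of scratching at 24 h of 0.47 for Mt1 (SE 0.071, adjusted p = 8.29e-08) and 0.52 for Mt2 (SE 0.081, adjusted p = 1.35e-07) on the log2 scale. Mt4 fell by 1.01 (SE 0.28, adjusted p = 0.00296), and the other 4 tested members lay between -0.03 and 0.11. In this fit 12.8% of 12744 genes passed. With sequencing pool as a covariate the values were 0.46, 0.52 and -1.03, and all 3 passed where 12.5% of genes did.

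At 7 d the difference was not detected. Over the 4 applications Mt1 had a log2 fold change of 0.02 (95% interval -0.12 to 0.16), Mt2 -0.07 (-0.24 to 0.09), Mt4 -0.42 (-0.92 to 0.09) and Slc39a14 0.31 (0.05 to 0.58, adjusted p = 0.114), and 0 members were called where 4.16% of genes were. Of the 7 tested, 1 was at an unadjusted p under 0.05, and 0 were called by DESeq2. In the single applications 0 of 28 values were called at 7 d (4 at an unadjusted p under 0.05, 0 by DESeq2), where 0% (PBS), 0.135% (nTiO2), 0.944% (nZnO) and 0.611% (nAg) of genes passed. The effect of scratching at 7 d minus that at 24 h was tested directly in the same fit. It was -0.44 for Mt1 (SE 0.10, adjusted p = 0.00148) and -0.60 for Mt2 (SE 0.11, adjusted p = 0.000141), with 5.79% of genes called. For Mt4 it was 0.59 (adjusted p = 0.372). With PBS and nTiO2 at 7 d the intact mice came from pools 1 to 3 and the scratched mice from pools 4 and 5, so that scratching and pool cannot be told apart there or in the values over 4 applications, nor in the 7 d minus 24 h values. With nZnO and nAg both skin states came from pools 4 and 5, and with pool as a covariate Mt1 had 0.04 (95% interval -0.18 to 0.27) and 0.09 (-0.15 to 0.33). In scratched only against naive skin at 7 d, 0 members were called (2 at an unadjusted p under 0.05, 0 by DESeq2) and 1.23% of genes were, with a log2 fold change of -0.13 for Mt1 and -0.15 for Mt2.

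**Figure D2:**
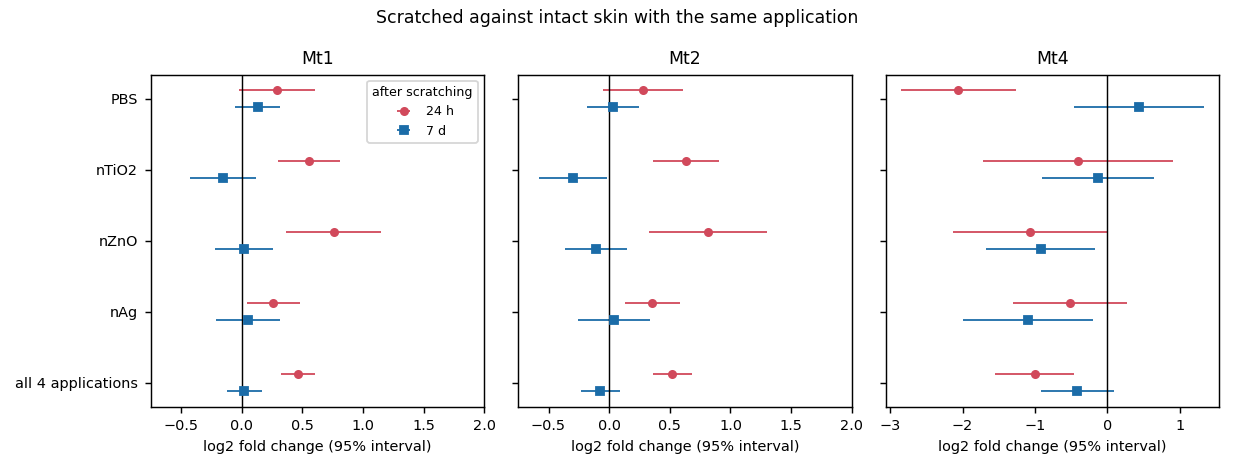
Log2 fold change of scratched against intact skin with its 95% interval for Mt1, Mt2 and Mt4, by application and over all 4 applications, at 24 h (circles) and 7 d (squares). Over all 4 applications Mt1 lies at 0.47 and Mt2 at 0.52 at 24 h, and both lie within 0.1 of 0 at 7 d.

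The pools bear on these values. In the scratched PBS group at 24 h, Mt1 averaged 589 CPM in the 4 mice of pool 1 and 398 CPM in the 4 mice of pool 2. In the scratched nZnO group it averaged 807 CPM in pool 2 (734 to 985) and 490 CPM in pool 3 (377 to 773), and in the scratched only group 676 CPM in pool 2 and 445 CPM in pool 3. The difference between pools was smaller with nTiO2, at 566 CPM in pool 3 and 486 CPM in pool 1, and with nAg, at 509 CPM in pool 1 and 499 CPM in pool 2. A pool could coincide with a cage or a day, and these cannot be told apart here.

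Within the 1 pool that a scratched group shared with its intact group, 4 mice against 4, Mt1 was higher after scratching each time, without a test. The ratio of means was 1.52 with PBS (589 against 387 CPM), 1.55 with nTiO2, 1.86 with nZnO (807 against 434 CPM), 1.19 with nAg and 1.48 for scratched only against naive. In all but the nAg groups the 4 scratched mice lay above the 4 intact ones, and with nAg 2 did. For Mt2 the ratios were 1.54, 1.57, 1.92, 1.3 and 1.67. With pool as a covariate, scratched only against naive had a log2 fold change of 0.57 for Mt1 (adjusted p = 0.0462) and 0.75 for Mt2 (adjusted p = 0.0323), so both passed where 3.22% of genes did. Mt2 with PBS passed at 0.61 (adjusted p = 0.0483) where 3.39% did. These fits take each contrast from the same 4 against 4 mice of the shared pool and are no second result.

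Other genes moved with Mt1 and Mt2 after scratching, and their part in the result was not tested. Over the 4 applications at 24 h, 7 of 8 genes of wounded epidermis were higher (median log2 fold change 1.34, against 0.00 over all genes), with the keratin Krt6b at 2.50. Of genes of neutrophils 6 of 8 were higher (median 0.83), of monocytes and macrophages 6 of 10 (median 0.42), and of acute-phase and interleukin-6 targets 6 of 10 (median 0.43). The summed CPM of the wounded-epidermis list was 4832, 14230 and 16805 in the scratched nZnO mice and 3080, 5220 and 6131 in the intact nZnO mice (lowest, median and highest). The neutrophil list summed to 262, 533 and 804 CPM and to 94.9, 326 and 566 CPM in the same groups.

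Markers of other skin cells moved in the same contrast, in which 6.36% of all genes were higher and 6.41% lower. Of 9 sebocyte genes 7 were lower (median -0.51), with the lipid genes Scd1 at -0.57 and Awat2 at -0.80, and of 10 adipocyte genes 3 were lower (median -0.26), with Retn at -1.18 and Cfd at -0.39. Of 7 fibroblast genes 3 were lower, among them Dpt at -0.43 and Dcn at -0.41, and 1, Pdgfra, was higher at 0.39. Of 12 genes of interfollicular and suprabasal epidermis 3 were lower, among them the keratins Krt2 at -2.18 and Krt77 at -1.68, and 1 was higher. Of 6 basal genes 4 were higher, with the integrin Itga6 at 0.61 and Krt14 at 0.51, and Krt15 was lower at -0.65.

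Genes of metal handling outside the members were read in the contrast of scratched against intact skin over the 4 applications. Of 14 tested genes linked to MTF-1 or to the metal response, 2 were higher at 24 h where 6.36% of all genes were, the selenoprotein gene Selenoh at 0.48 and the haem oxygenase gene Hmox1 at 0.39, with a list median of 0.02. Of 5 other zinc exporters 0 passed (median 0.04), of 8 other zinc importers 0 (median 0.01) and of 10 genes of copper and silver handling 0 (median 0.00), with 1, 1 and 5 at an unadjusted p under 0.05 by edgeR. Slc39a11 at -0.20 (adjusted p = 0.0181) and the superoxide dismutase gene Sod1 at -0.18 (adjusted p = 0.00782) passed the adjusted p but not the minimum log2 fold change of 0.33. The same held for Gclc at -0.19 and Txnrd1 at -0.18, both of the MTF-1 list, and for Selenow of that list at 0.15. Of 10 genes that glucocorticoids induce 2 were higher, beside the 6.36% of all genes, the lipocalin Lcn2 at 1.65 and the clock gene Per1 at 0.61. The rest of that list was not called in either direction. Among the members, Slc30a1 at 0.00 (95% interval -0.11 to 0.11), Mtf1 at -0.03 (-0.15 to 0.09) and Slc39a10 at -0.01 (-0.16 to 0.13) lay near 0 in this contrast. Mt1 and Mt2 were called higher in it and Mt4 lower, as given above.

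With the filter on low counts, all mice of both groups and no term for pool, application of nZnO or nAg was not followed by a detected change of any member, and the fits that called Mt1, Mt2, Mt4 or Slc39a14 without the filter, within a pool or with a term for pool are given with their comparisons. In the 24 comparisons among nZnO, nAg, nTiO2 and PBS, on intact or scratched skin at either time, 0 of 168 member values were called, with 18 at an unadjusted p under 0.05 and 0 called by DESeq2. The share of all genes that passed was 0.0442% for nZnO and 0.0859% for nAg against PBS on intact skin at 7 d, 0.00835% for nAg against PBS on scratched skin at 7 d, 0.0262% for nZnO and 0.00852% for nAg against nTiO2 on intact skin at 7 d, 0.00869% for nZnO against nAg on intact skin at 24 h, and 0% in the other 18. The comparisons of nZnO, nAg and nTiO2 with PBS use the same PBS mice, so they are not independent of one another.

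On intact skin at 24 h, Mt1 was at 342, 389 and 500 CPM with nZnO, at 338, 401 and 482 CPM with nAg, at 337, 363 and 446 CPM with nTiO2 and at 308, 409 and 459 CPM with PBS. These ranges nearly coincide. Against PBS the log2 fold change of Mt1 was -0.04 for nZnO (95% interval -0.25 to 0.17) and 0.05 for nAg (-0.14 to 0.23), so that rises above 1.13-fold and 1.17-fold lie outside the intervals. For Mt2 the values were -0.12 (-0.35 to 0.11) and -0.01 (-0.20 to 0.18).

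On intact skin at 7 d, Mt1 was at 320, 426 and 568 CPM with nZnO and at 348, 417 and 625 CPM with nAg, against 309, 371 and 392 CPM with PBS. In each nanomaterial group 5 of 8 mice lay above every PBS mouse, and with nTiO2 6 of 8 did. The log2 fold changes were 0.21 for nZnO (-0.03 to 0.46, adjusted p = 0.554), 0.23 for nAg (0.00 to 0.46, adjusted p = 0.365) and 0.33 for nTiO2 (0.07 to 0.59, adjusted p = 0.460). The nZnO and nAg mice came from pools 4 and 5 and the PBS mice from pools 1 and 3, so pool and material cannot be told apart. For Mt2 the fold changes were 0.07, 0.00 and 0.24.

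On scratched skin at 24 h, Mt1 was at 377, 739 and 985 CPM with nZnO, at 357, 519 and 602 CPM with nAg, at 401, 488 and 679 CPM with nTiO2 and at 306, 479 and 756 CPM with PBS. The nZnO group held the highest mice but overlapped each of the others, with 3 of 8 mice above every PBS mouse. Its log2 fold change against PBS was 0.42 (-0.03 to 0.88, not past the threshold), and that of Mt2 was 0.41 (-0.13 to 0.95). With nAg, Mt1 had 0.02 (-0.32 to 0.36) and Mt2 0.07 (-0.28 to 0.41). Against nAg and nTiO2, nZnO had 0.41 (adjusted p = 0.896) and 0.32 (adjusted p = 0.998) for Mt1.

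In this comparison the call depended on the pool. The nZnO and PBS groups shared pool 2 only, where Mt1 was at 734 to 985 CPM in the 4 nZnO mice and at 306 to 507 CPM in the 4 PBS mice, which did not overlap. Within that pool, an alternative added after the values were seen, the log2 fold change was 1.06 for Mt1 (SE 0.16, adjusted p = 0.00464), 1.20 for Mt2 (SE 0.17, adjusted p = 0.00357) and 0.92 for Slc39a14 (SE 0.24, adjusted p = 0.0472), while 3.91% of all 11918 genes tested passed. A fit of all 16 mice with pool as a covariate takes this contrast from the same 8 mice of pool 2 and is no second result. Its values were 1.06 (adjusted p = 0.0141) for Mt1 and 1.20 (adjusted p = 0.0150) for Mt2, where 4.39% of genes passed against 0% without the covariate, and both lost the call without scratched PBS replicate 8 (adjusted p = 0.0569). The nZnO mice of pool 3, at 377 to 773 CPM, had no PBS mice beside them. Among the other scratched mice of pool 2, which received no zinc, those with nAg averaged 499 CPM (357 to 602) and those scratched only 676 CPM (515 to 895). In pool 3 the scratched mice at 24 h without zinc averaged 566 CPM with nTiO2 (478 to 668) and 445 CPM when scratched only (381 to 514). The nZnO mice of pool 3 averaged 490 CPM.

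On scratched skin at 7 d, Mt1 was at 388, 440 and 502 CPM with nZnO and at 359, 431 and 572 CPM with nAg, against 323, 431 and 474 CPM with PBS. The groups overlapped over most of their ranges. The log2 fold changes were 0.10 (-0.08 to 0.28) and 0.15 (-0.08 to 0.37), and those of Mt2 were -0.08 and 0.00.

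Over the 4 settings in 1 fit, the mean of the nZnO groups was set against the mean of the PBS and nTiO2 groups. The log2 fold change was 0.13 for Mt1 (95% interval 0.01 to 0.26, adjusted p = 0.905), 0.06 for Mt2 (-0.08 to 0.20) and -0.12 for Slc30a1 (-0.21 to -0.02, adjusted p = 0.905). For nAg against the same PBS and nTiO2 groups the values were 0.07 for Mt1 (-0.05 to 0.19), 0.00 for Mt2 (-0.13 to 0.14), -0.12 for Slc30a1 (-0.22 to -0.03) and 0.14 for Mtf1 (0.04 to 0.25), with adjusted p of 0.946 for the last pair. In each of the 2 fits 0% of 12744 genes passed, 2 of 7 members were at an unadjusted p under 0.05, and 0 were called by DESeq2. The exporter Slc30a1, which zinc is known to raise, had means of 79.5, 79.2, 80.0 and 81.1 CPM in the 4 nZnO groups (24 h intact, 24 h scratched, 7 d intact, 7 d scratched) and of 91.4, 89.6, 80.1 and 89.1 CPM in the matching PBS groups. The ranges of each pair overlapped. Of 14 other genes linked to MTF-1, 5 other zinc exporters, 8 other importers and 10 genes of copper and silver handling, 0 were called for nZnO or nAg over the 4 settings by edgeR, where 4 of these genes for nZnO and 0 for nAg were at an unadjusted p under 0.05, with list medians between -0.08 and 0.03 against 0.00 over all genes.

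**Figure D3:**
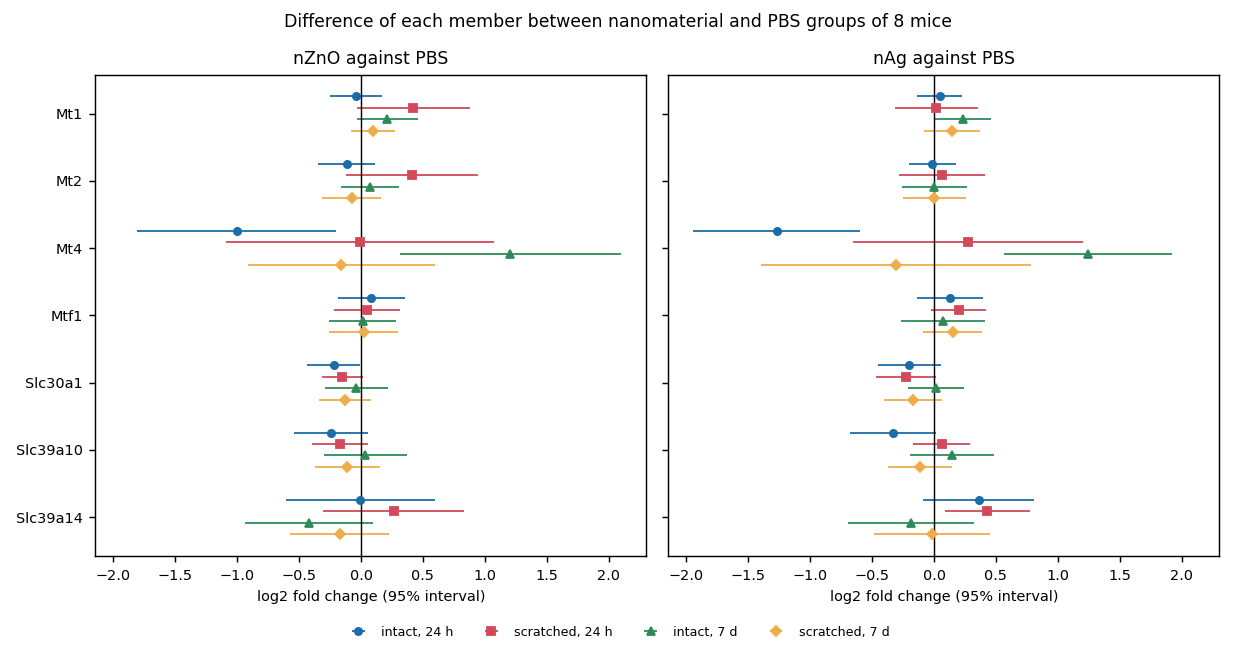
Log2 fold change of the 7 tested members for nZnO (left) and nAg (right) against PBS, with the 95% interval, in 4 settings of 8 against 8 mice. Intervals of Mt1 and Mt2 include 0 except that of Mt1 with nAg on intact skin at 7 d, which lies just above it (0.004 to 0.461). Those of Mt4 are widest, with values of -1.0 and -1.27 at 24 h and of 1.21 and 1.24 at 7 d on intact skin.

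Whether scratching altered the effect of a nanomaterial was tested as an interaction. In 6 such tests 0 of 42 member values were called, with 4 at an unadjusted p under 0.05 and 0 called by DESeq2. Of all genes, 0.00828% passed for nZnO at 7 d, 0.115% for nAg at 7 d and 0% in the other 4. The interaction of nZnO and scratching at 24 h was 0.46 for Mt1 (-0.06 to 0.98, adjusted p = 0.920) and 0.52 for Mt2 (-0.09 to 1.14, adjusted p = 0.920).

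Mt4 followed a course of its own. At 24 h it was at 35.9, 74.4 and 189 CPM in intact PBS skin and at 3.23, 14.0 and 44.6 CPM in scratched PBS skin, where 6 of 8 mice lay below every intact one. It fell by 2.06 on the log2 scale (SE 0.38, adjusted p = 0.00471) where 3.39% of genes passed, and it stayed past the threshold in 16 of 16 fits that left out 1 mouse (adjusted p 0.0019 to 0.0142). With nTiO2, nZnO and nAg the log2 fold changes at 24 h were -0.41, -1.07 and -0.52, with adjusted p of 0.816, 0.226 and 0.566. The interactions of scratching with each material on Mt4 at 24 h were 1.66, 0.98 and 1.54, with adjusted p of 0.985, 0.944 and 0.894.

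The intact PBS mice at 24 h were also high beside the naive mice, in which Mt4 was at 4.82, 19.8 and 37.3 CPM. Of the 8 PBS mice 7 lay above every naive one. The log2 fold change was 1.84 (SE 0.32, adjusted p = 0.00998) where 0.692% of genes passed, and it held in 17 of 17 fits that left out 1 mouse (0.00502 to 0.0293). It did not pass when all 19 groups shared 1 fit (adjusted p = 0.0549). The same 8 PBS mice entered the comparison with scratched PBS skin, and they were split by pool. Mt4 averaged 111 CPM in pool 1 (80.6 to 189) and 52.8 CPM in pool 3 (35.9 to 68.3). In pool 1, which these groups shared, it averaged 17.2 CPM in naive mice (4.82 to 33.3) and 17.8 CPM in scratched PBS mice (3.23 to 44.6). At 7 d, PBS against naive had 0.75 for Mt4 (adjusted p = 0.640), and 0 members were called where 0.24% of genes were, with 4 of 14 values over both times at an unadjusted p under 0.05 and 1, Mt4 at 24 h, called by DESeq2. Scratched only skin at 24 h, at 6.07, 21.9 and 51.8 CPM, lay over the range of the naive mice, with a log2 fold change of 0.10 (95% interval -0.65 to 0.85).

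In the comparisons of intact PBS skin at 24 h with naive and with scratched PBS skin, Mt4 moved together with genes of the hair shaft. The part of these genes in the differences, like that of the epidermal genes below, was not tested. The 14 listed genes of hair cortex and matrix summed to 85.5, 664 and 3855 CPM in intact PBS skin at 24 h, to 29.5, 53.5 and 560 CPM in naive skin and to 40.4, 105 and 1535 CPM in scratched PBS skin at 24 h (lowest, median and highest), and in each group none of the 14 was at 0 in every mouse. In PBS against naive, 10 of 12 tested hair genes were higher, with a median of 3.97 against 0.00 over all genes. In scratched against intact PBS skin 0 of 12 were called by edgeR and 12 were at an unadjusted p under 0.05, with a median of -2.18 against -0.01 and all 12 below 0. Over the 4 applications at 24 h, where Mt4 was also called lower, 0 of 12 hair genes were called by edgeR. There 1 was at an unadjusted p under 0.05, Hoxc13 at -0.327 (adjusted p = 0.00308). With nAg the median sum at 24 h was 108 CPM in intact and 250 CPM in scratched skin. It was 160 and 135 CPM with nZnO, and 168 and 120 CPM with nTiO2.

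Genes of the differentiating epidermis, where Mt4 is made, were read in the same comparisons. In scratched against intact PBS skin 1 of 11 was lower, Krt77 at -1.99, and 1 was higher, the caspase gene Casp14 at 0.50, with a list median of -0.28. In PBS against naive skin at 24 h the list had a median of -0.02, and 5 of 11 genes were above 0. Over the 153 mice the log2 CPM of Mt4 had a Pearson r of 0.57 with Krt77 (0.36 within groups) and of -0.68 with the acute-phase gene Saa3 (-0.55 within groups), as a description over libraries that differ in depth.

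Against PBS on intact skin, the nanomaterial groups had lower Mt4 at 24 h and higher Mt4 at 7 d, in differences that did not pass. At 24 h it was at 9.46, 34.5 and 76.0 CPM with nAg and at 10.6, 44.1 and 81.0 CPM with nZnO, against 35.9, 74.4 and 189 CPM with PBS. The log2 fold changes were -1.27 for nAg (-1.94 to -0.59, adjusted p = 0.444) and -1.0 for nZnO (-1.81 to -0.20, adjusted p = 0.769). At 7 d it was at 50.6, 80.3 and 173 CPM with nAg and at 35.4, 55.3 and 236 CPM with nZnO, against 15.0, 27.4 and 89.4 CPM with PBS. The log2 fold changes were 1.24 (0.56 to 1.92, adjusted p = 0.0885) and 1.21 (0.31 to 2.10, adjusted p = 0.363), and the value for nAg was the smallest adjusted p of any member in the 24 nanomaterial comparisons. Without the filter on low counts both nAg values passed, at -1.28 (adjusted p = 0.0333) and 1.26 (adjusted p = 0.00464), where 0.0463% and 0.499% of genes did. The nTiO2 groups, without zinc or silver, lay on the same sides of PBS. Their mean Mt4 was 0.665 times that of PBS at 24 h and 1.34 times at 7 d.

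The hair list lay in the same order in these groups. Its summed CPM had medians of 108 with nAg, 160 with nZnO and 664 with PBS on intact skin at 24 h, and of 1050 with nAg, 570 with nZnO and 210 with PBS at 7 d. Its part in the differences of Mt4 was not tested, and at 7 d the nZnO and nAg mice came from other pools than the PBS mice, as above.

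**Figure D4:**
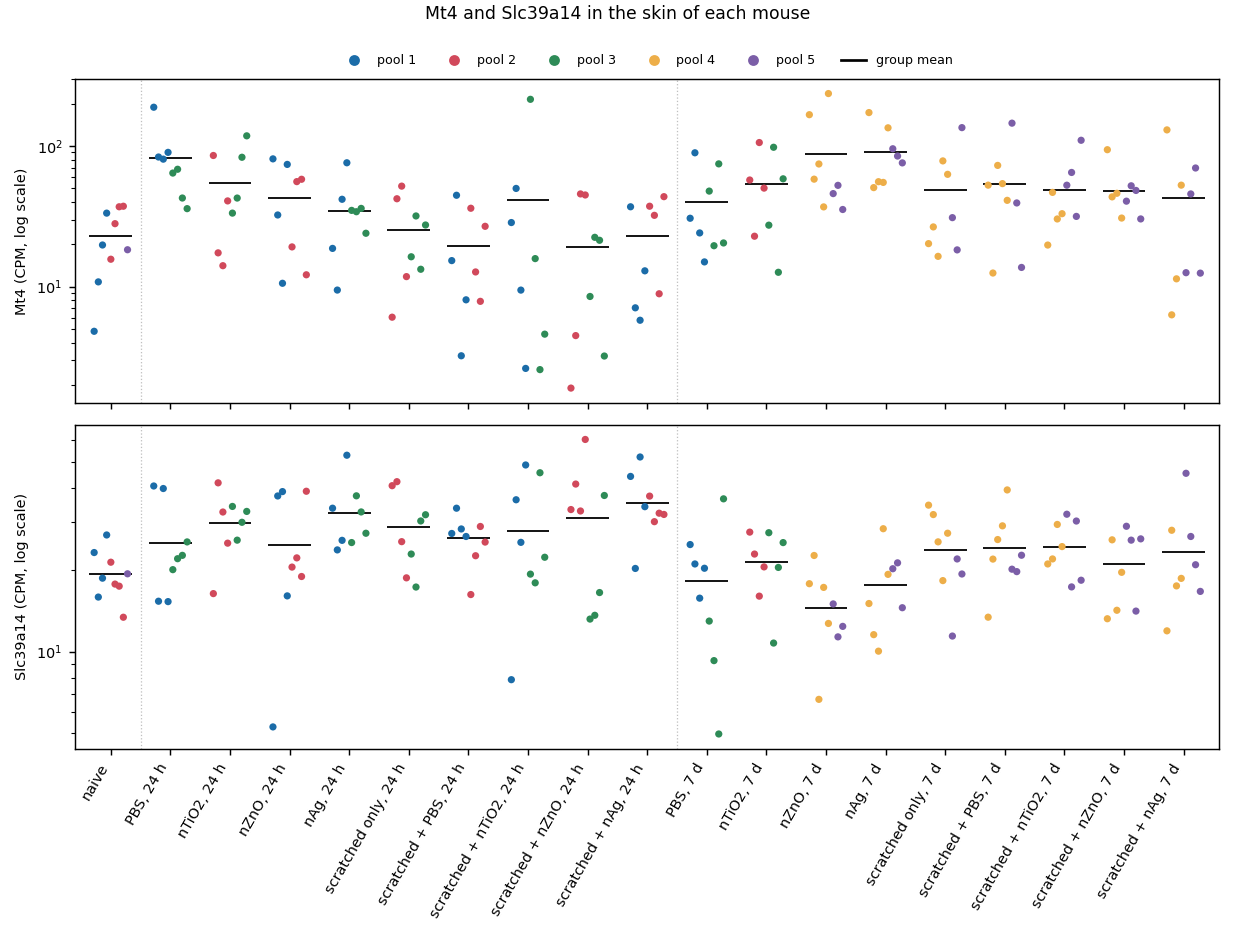
CPM of Mt4 (top) and Slc39a14 (bottom) in each mouse of the 19 groups on a log scale, with points coloured by sequencing pool and bars at the group means. Mt4 spans 1.90 to 236 CPM, and its mean is 81.7 CPM in intact PBS skin at 24 h and 22.8 CPM in naive skin.

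Between 24 h and 7 d, 3 of 56 member values were called over the 8 applications and skin states, with 16 at an unadjusted p under 0.05. With nAg on intact skin, Mt4 went from 9.46, 34.5 and 76.0 CPM to 50.6, 80.3 and 173 CPM, and 4 of 8 mice at 7 d lay above every mouse at 24 h. The log2 fold change was 1.42 (SE 0.30, adjusted p = 0.0115). Slc39a14 went from 23.7, 29.9 and 52.7 CPM to 10.0, 17.1 and 28.3 CPM, and 7 of 8 mice at 7 d lay below every mouse at 24 h. It fell by 0.86 (adjusted p = 0.0158), and both genes passed in 16 of 16 fits that left out 1 mouse. Of all genes 3.35% passed.

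In that comparison pools 1 and 3 held the mice of 24 h and pools 4 and 5 those of 7 d, so time and pool cannot be told apart. All 12 skeletal muscle genes were higher at 7 d (median 2.51 against 0.00 over all genes), with sums of 261, 1409 and 3702 CPM at 24 h and of 1045, 11420 and 13018 CPM at 7 d. Of 12 hair genes 2 were higher, Krt33b at 2.61 and Krt83 at 2.28, and 3 of 12 genes of interfollicular and suprabasal epidermis were higher, Krt2 at 2.64, involucrin (Ivl) at 1.23 and Krt77 at 0.72. Of 9 acute-phase genes 3 were lower, Timp1, an inhibitor of metalloproteinases, at -0.94, Lbp at -0.68 and Saa3 at -1.15. Txnrd1 and Gclm, genes of thioredoxin and glutathione metabolism, were lower at -0.43 and -0.42.

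With nZnO on scratched skin, Mt2 went from 150, 372 and 590 CPM at 24 h to 172, 197 and 276 CPM at 7 d, and 5 of 8 mice at 24 h lay above every mouse at 7 d while 1 lay below. It fell by 0.78 (adjusted p = 0.0465) where 5.6% of genes passed. Mt1 had a log2 fold change of -0.60 (adjusted p = 0.0531) and Mt4 of 1.26 (adjusted p = 0.0643). The Mt2 call held in 4 of 16 fits that left out 1 mouse (adjusted p 0.00799 to 0.0992, the highest without scratched nZnO replicate 3 at 24 h). Here too the mice of 24 h and 7 d came from different pools. Of 8 other zinc importers Slc39a2 was higher at 0.63, and of genes linked to MTF-1 Selenoh and Selenow were lower at -0.53 and -0.34. The copper gene Commd1 was lower at -0.40, and 6 of 8 genes of wounded epidermis were lower (median -1.31).

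In the other 6 comparisons of 7 d with 24 h, 0 of 42 member values were called, with 11 at an unadjusted p under 0.05 and 1 called by DESeq2. The share of genes that passed was 0% (PBS), 0.765% (nTiO2) and 0.207% (nZnO) on intact skin, and 4.42% (PBS), 1.12% (nTiO2) and 0.591% (nAg) on scratched skin. Mt1 on intact skin had log2 fold changes of -0.12 with PBS, 0.37 with nTiO2 (adjusted p = 0.115), 0.13 with nZnO and 0.06 with nAg.

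Across the 153 mice the most alike pair of members was Mt1 and Mt2. Their log2 CPM had a Pearson r of 0.87 over all mice and of 0.84 within groups, and the ratio of Mt1 to Mt2 counts ran from 1.39 to 2.60 with a median of 1.96. The points share libraries and depth, and Mt1 and Mt2 are close in sequence. The study's methods carry uniquely aligned reads into the counting, and reads of either gene placed on the other were not looked for here. Next to Mt1 came Sfn, which encodes stratifin of keratinocytes, and Ptges, a prostaglandin E synthase, both at 0.76. For Mt2 they were Urah (0.73) and the gap junction gene Gjb6 (0.72). Mt1 and Mt4 had an r of -0.32 over all mice and -0.14 within groups.

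The other members had other companions among 10025 genes whose mean reached 10 CPM. Mt4 was most like the hair keratin-associated gene Krtap3-2 (0.80, and 0.73 within groups), then Car6 (0.71) and Krtap17-1 (0.70). Slc39a10 was most like Krtap17-1 (0.56), Krtap9-3 (0.54) and Krtap1-3 (0.53). Slc39a14 was most like Timp1 (0.72), the chemokine Ccl2 (0.69) and the matrix gene Tnc (0.66). For Mtf1 the highest was Ash2l (0.43), for Slc30a1 they were Cpm (0.46), Gm10228 (0.41) and Gm11568 (0.39), and for Slc39a4, measured by few counts, Fxyd2 (0.34), Pgp (0.33) and Rab32 (0.33).

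**Figure D5:**
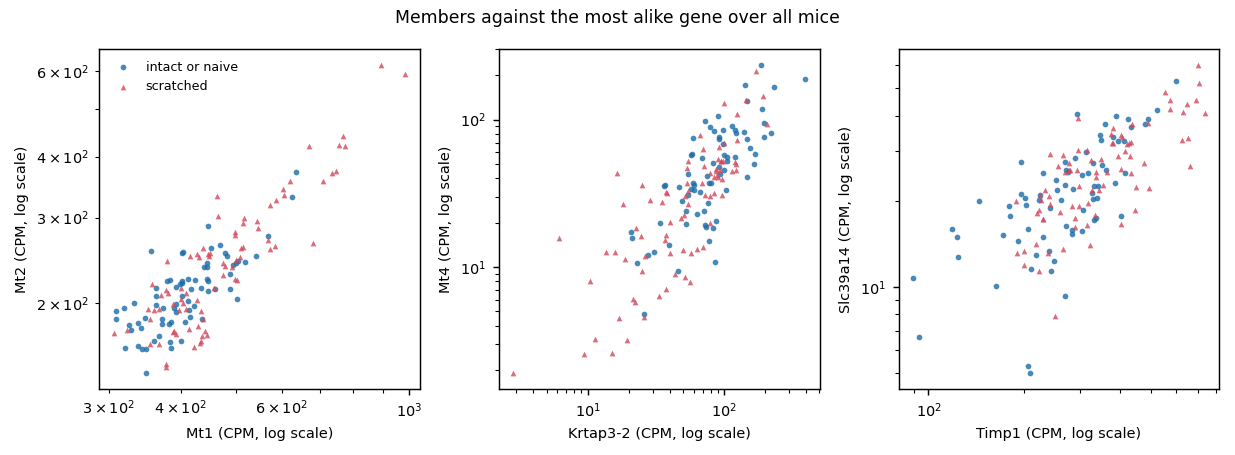
CPM of Mt2 against Mt1, of Mt4 against Krtap3-2 and of Slc39a14 against Timp1 in 153 mice, on log axes, with scratched mice as triangles and intact or naive mice as circles. Pearson r of log2 CPM over all mice is 0.87, 0.80 and 0.72 in this order.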

How the data were processed

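RNA was extracted from upper-back skin of 153 mice, barcoded per mouse and sequenced from the 3′ end in 5 pools. The authors removed reads shorter than 20 bases with Trimmomatic, aligned with STAR 2.7.6a to GRCm39 with Gencode M28, and used Drop-seq tools 2.4.1 to make counts of unique molecules for each gene. The deposited counts were whole numbers for 36716 genes without normalisation. The deposited sample information gives pool and RNA integrity (a score of 7.7 to 9.9), and no replicate pair of 540 was identical. 1 mouse of 7 d intact nZnO has a treatment field that disagrees with its other labels. It was kept, and left out as an alternative.

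CPM were taken over all counts of a mouse, shares of variance used log2(CPM + 1), and likeness used log2 CPM with TMM factors and a prior count of 2. Counts were tested in R 4.3.3 with edgeR 4.0.16 (TMM, quasi-likelihood test) across all genes of 44 comparisons of a pair of groups and of further contrasts, 55 in all, keeping a gene where 75% of mice in 1 of the groups (6 of 8, 7 of 9) had over 5 counts. Genes were called where the Benjamini-Hochberg adjusted p was below 0.05 and the log2 fold change was 0.33 or more in either direction. Shares of all genes that passed refer to this rule and not to counts at an unadjusted p under 0.05. Alternatives were DESeq2 1.42.0, limma 3.58.1 (voom with quality weights), RLE factors, no filter, no minimum fold change, pool as covariate, all 19 groups in 1 fit and leaving out mice. Scripts were tested on simulated data. The members and lists were chosen with earlier results of these data known. The 3 genes most alike each member (for Mtf1 only the first, the others not being reported here) were named, and of list genes past the threshold in comparisons with a called member (up to 4 a list by p) some were named and the rest given as counts, and genes singled out beyond that were chosen after their values were seen. Tables of the authors' comparisons were not used. Tables and positions came from RefSeq and Gencode M39 for GRCm39, and no protein sequence was used here.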

Additional observations from a re-analysis of the deposited data

Results flagged for a closer look

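In 152 sets of CPM (8 members in 19 groups), the gap between the highest or lowest mouse and the next was set against the range of the group, a rule that picks about 1 group in 20 by chance. It picked 14. For Mt2 they were scratched only replicate 1 at 24 h (617 CPM, with the next mouse at 357), intact nTiO2 replicate 7 at 7 d (373, next 260) and intact nAg replicate 1 at 7 d (330.4, next 225). For Mt4 they were intact PBS replicate 5 at 24 h (189, next 90.1), scratched nTiO2 replicate 1 at 24 h (215, next 49.9), scratched PBS replicate 2 at 7 d (145, next 72.8) and scratched nZnO replicate 3 at 7 d (94.1, next 52.1).

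For Mtf1 they were the low values of scratched nAg replicate 7 at 24 h (22.3, next 30.7) and of intact PBS replicate 3 at 7 d (9.95, next 25.1), the mouse with the lowest total count of all. For the transporters they were Slc30a1 in scratched PBS replicate 3 at 24 h (107, next 90.9), Slc39a10 in intact PBS replicate 5 at 24 h (149, next 101) and in intact nAg replicate 8 at 24 h (133, next 78.1), Slc39a4 in intact nZnO replicate 6 at 24 h (7.37, next 3.83) and Slc39a14 in intact nAg replicate 8 at 24 h (52.7, next 37.4). Intact PBS replicate 5 at 24 h stood out for Mt4 and Slc39a10, and intact nAg replicate 8 at 24 h for Slc39a10 and Slc39a14.

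The effect of scratching differed between times for 2 members by a test of the difference itself, at -0.44 for Mt1 and -0.60 for Mt2 (log2, 7 d minus 24 h). The contrast was chosen after values had been seen, and scratching and pool cannot be told apart in its 7 d part with PBS and nTiO2.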

How the results depend on the processing

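Of 439 alternative values 429 stayed the same, within 1.5 times for counts of called members and within 1 SD for group levels. The 439 include the 152 group levels under TMM scaling given below, and the 10 that moved were counts of called members. Fits that left out 1 mouse kept the main calls of the comparisons not refitted. For counts only totals were compared, and a count of 0 that stayed 0 was taken as the same. The share that stayed the same is therefore no measure of how firm single calls are. With pool as covariate, nZnO against PBS went from 0 to 2 (Mt1 and Mt2, scratched, 24 h) and scratched only against naive from 0 to 2. Within pool 2 alone, nZnO against PBS on scratched skin at 24 h gave 3. Without the filter, nAg against PBS went from 0 to 2. With all 19 groups in 1 fit, scratched only against naive went from 0 to 1 and PBS against naive from 1 to 0. For 7 d against 24 h, DESeq2 called 5 and the fit without the filter 6, against 3. Leaving out 1 mouse at a time, scratched against intact skin had 3 to 5 calls against 5, with 3 without scratched nZnO replicate 3 or 4 at 24 h. Of 544 values of single members, 456 kept their side of the threshold, 54 came to pass it, 32 lost it and 2 changed sign, Mt4 for nAg over the 4 settings with quality weights (0.086) and Mt4 for nZnO against PBS, scratched, 24 h within pool 2 (0.24). The cause was not tested. Under TMM scaling 0 of 152 group levels moved by more than 1 SD.

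No paired analysis was possible because replicate numbers only name mice within a group. Cage is not modelled, and pool and material cannot be told apart for nZnO or nAg against PBS or nTiO2 on intact skin at 7 d, nor pool and scratching at 7 d with PBS or nTiO2. Counts of Slc39a4 (0 to 18 a mouse) were too low to test, and those of Mt4 (2 to 320) and Slc39a14 (1 to 98) carry counting error in single mice.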
